A study of Mus musculus with 26 samples.

Results

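The genes described here are the 35 that carry glucose to lactate, to the mitochondrion or to glycogen: glucose transporters, the enzymes of glycolysis, lactate dehydrogenase and lactate transporters, the pyruvate carrier, pyruvate dehydrogenase and its kinases, and glycogen phosphorylase and synthase. The genes were taken by symbol and not by a cut on measured values, though the list was chosen with earlier results of these data known. Their 35 symbols matched 36 of the 54532 rows of the count table, because Aldoa stood in 2 rows. The second Aldoa row, a separate gene ID whose locus begins just upstream of the gene, held 3 to 44 counts and is counted among the 36 rows tested. All 36 rows passed the filter on low counts in every comparison.

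RNA was measured in 26 libraries of untreated mice labelled day 0. For retina there were 6 libraries of RNA pulled down by immunoprecipitation (IP) to enrich what astrocytes express, and 6 input libraries of retinal RNA without that step. Nerve tissue was taken through the same IP in 7 libraries of the optic nerve head (ONH), the short stretch at the back of the eye, and 7 of the myelinated optic nerve proper (ONP) behind it. Strain, age, sex, the allele behind the IP and the number of animals per library are not given in the sources used here, so p-values measure the spread between libraries. Per the labels, the 12 retinal libraries and replicate 7 of ONH and of ONP formed batch 2, and the other 12 nerve libraries formed batch 1. Those 2 nerve libraries of batch 2 are called the bridging libraries, since the batch difference can be estimated only through them.

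Glycolysis splits glucose into pyruvate in the cytosol and yields ATP without oxygen. Pyruvate is then reduced to lactate by lactate dehydrogenase, which can leave the cell through monocarboxylate transporters, or it enters mitochondria through the pyruvate carrier and is oxidised by pyruvate dehydrogenase. Astrocytes are known for a high glycolytic rate, for exporting lactate and for holding most of the glycogen of nervous tissue. Most steps have several isoform genes that differ between cell types: Eno2 is best known from neurons, Aldoc from astrocytes, and Hk2 and Ldha from cells with a high glycolytic rate.

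Several libraries stood apart before any gene was compared. Total counts ranged from 11164619 to 27431026 per library. Input replicates 1 and 2 had 8.16% and 15.2% of counts from mitochondrially encoded genes and 16782 and 17082 detected genes, where the other inputs had at least 19835. Among the retinal IP libraries, the summed level of 9 astrocyte markers, all found, was 6403, 5344 and 8659 CPM (counts scaled to a common library size) in replicates 2, 3 and 4. It was 1097, 1450 and 2122 CPM in replicates 1, 5 and 6, against 401 to 1627 CPM in input. The sum of 8 Müller glia markers split in the same way, at 9687, 10726 and 10915 CPM in replicates 2, 3 and 4 and at 4283, 3885 and 6761 CPM in replicates 1, 5 and 6. So did the mitochondrially encoded share, at 1.03%, 2.11% and 2.23% against 0.384%, 0.155% and 0.259%. The summed level of 10 ganglion cell markers ran the other way, at 2049.7, 1572 and 921 CPM in replicates 2, 3 and 4 and at 5477, 5067 and 5359 CPM in replicates 1, 5 and 6. The bridging ONH library held 42599 CPM of 12 rod and cone markers, against at most 721 CPM in the other ONH libraries. For 4 Y-linked genes the summed count was 702 or more in each library of batch 1 and 0 or 1 in each of batch 2. Y-linked RNA thus went wholly with batch, and effects of sex and of batch cannot be told apart here. In bulk RNA of this kind, fewer cells of a type and less RNA per cell cannot be told apart.

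The 36 rows together took 4.50% to 6.14% of all counts in the 6 retinal IP libraries and 2.63% to 5.11% in the 6 inputs. In the nerve their share was 1.42% to 2.47% in ONH and 1.10% to 1.78% in ONP. No nerve library reached the lowest retinal library. Per kilobase of transcript, Aldoa was the highest member in retinal IP, with a median of 4585 CPM per kb. Gapdh followed at 3594, Aldoc at 3186, Tpi1 at 2181 and Pkm at 1955 CPM per kb. In ONH and ONP the first 2 in the order were again Aldoa and Gapdh, at 1676 and 1253 CPM per kb in ONH and at 1328 and 1183 in ONP. At the low end in retinal IP stood Hk2 at 1.29, the lactate transporter gene Slc16a7 at 0.539 and the kinase gene Pdk4 at 0.309 CPM per kb.

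**Figure D1:**
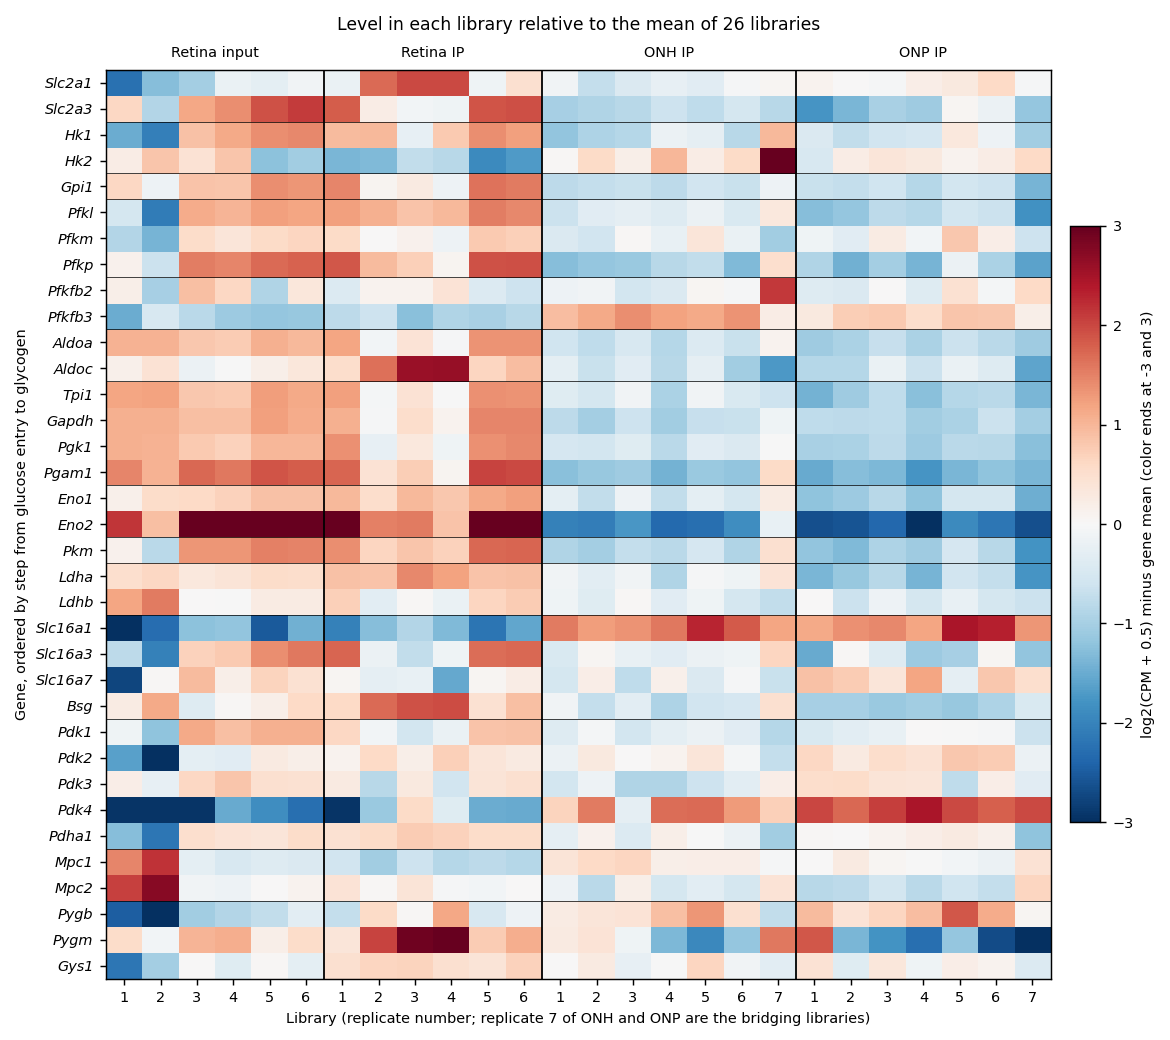
Level of each of the 35 genes (rows, ordered by step) in each of the 26 libraries (columns, by group and replicate), as log2(CPM + 0.5) minus the gene's mean over all libraries. Eno2 and most enolase, aldolase and triose rows are above their mean in retinal libraries, Slc16a1, Pfkfb3 and Pdk4 are above it in nerve libraries, and retinal IP replicates 2, 3 and 4 differ from 1, 5 and 6 in many rows.

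Retinal IP was first compared with retinal input, which asks what the enrichment for astrocyte RNA did to these genes. No member was called by the edgeR quasi-likelihood test at an adjusted p under 0.05, and none of all 15181 genes tested was (0% higher and 0% lower). At an unadjusted p under 0.05, 8 members were higher and 2 were lower in IP, where 11.7% and 10.4% of all genes were. The DESeq2 test called 6 members higher and 2 lower, where it called 6.38% and 7.27% of all genes. One fit of all 26 libraries called 6 higher and 3 lower (8.26% and 8.46% of all genes). The 3 lower were Hk2, Mpc1 and Mpc2, and DESeq2 called Hk2 and Mpc1. In the edgeR fit of retinal IP and input without input replicates 1 and 2, they had log2 fold changes of -1.23, -0.32 and 0.24. The adjusted p-values there were 0.146, 0.191 and 0.398. The members' median log2 fold change was 0.22, against 0.017 over all genes.

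The member with the smallest adjusted p was Slc2a1 (ENSMUSG00000028645, mm10 chromosome 4, 119108711 to 119137983, + strand), which encodes GLUT1, the glucose transporter of glia and of the blood-brain barrier. Its level was 174, 649.9, 795, 797, 184 and 279.6 CPM in IP replicates 1 to 6 and 42.2, 82.6, 97.9, 175, 163 and 186 CPM in the inputs (log2 fold change 2.06 with SE 0.50 and adjusted p = 0.0597). IP replicates 2, 3 and 4 were far above every input, replicate 6 was above every input, and replicates 1 and 5 lay within the input range. Aldoc (ENSMUSG00000017390, mm10 chromosome 11, 78322968 to 78327781, + strand), the aldolase isoform of astrocytes, had 5066, 11062, 21179.7, 21565, 5543 and 6692 CPM in IP and 3141 to 4793 CPM (median 3937) in input (log2 fold change 1.71 with SE 0.42 and adjusted p = 0.0634). Every IP library was above every input, and replicates 3 and 4 were the highest. Pdk4, a kinase that inhibits pyruvate dehydrogenase, had the largest log2 fold change, 2.67 (SE 1.17, adjusted p = 0.195). Its levels were low, at 0, 1.29, 5.23, 2.49, 0.865 and 0.842 CPM in IP and at 0 CPM in 3 of the 6 inputs.

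Ldha and Gys1 also had every IP library above every input, and Mpc1 had every IP library below. Over all genes, 1.65% lay wholly above and 2.9% wholly below. Ldha, the lactate dehydrogenase subunit that favours lactate production, had 2999 to 4520.0 CPM (median 3069.6) in IP and 2093 to 2549 CPM (median 2377) in input (log2 fold change 0.65 with SE 0.23 and adjusted p = 0.124). For Gys1, which encodes glycogen synthase outside the liver, the levels were 14.4 to 18.1 CPM (median 16.6) and 2.07 to 11.3 CPM (median 8.69) (log2 fold change 1.16 with SE 0.37 and adjusted p = 0.0916). Mpc1, one of the 2 subunits of the mitochondrial pyruvate carrier, had 78.9 to 110.3 CPM (median 92.9) in IP and 457, 746, 133, 118, 126 and 122 CPM in the inputs (log2 fold change -1.48 with SE 0.47 and adjusted p = 0.0886). Input replicates 1 and 2 were the high ones, and without them the Mpc1 log2 fold change was -0.32 (adjusted p = 0.191). Without these 2 inputs still no member was called. Leaving out 1 library at a time brought calls with IP replicate 1 (Slc2a1, Aldoc and Pygm) or IP replicate 5 (Slc2a1 and Aldoc) left out, where 2.23% and 1.45% of all genes were called higher.

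The enzymes shared by nearly all cells did not pass the test either, and their IP libraries lay on both sides of the inputs. Gapdh, which oxidises glyceraldehyde phosphate and is a common reference gene, had 6032, 2829, 4173, 3128, 7907 and 7944 CPM in IP and 5403 to 6770.3 CPM (median 6091) in input (log2 fold change -0.10 with SE 0.30 and adjusted p = 0.901). IP replicates 2, 3 and 4 were below every input, and 5 and 6 were above every input. The log2 fold changes of Aldoa, Tpi1, Pgk1 and Pgam1 were -0.061, -0.15, -0.012 and -0.18, with adjusted p from 0.816 to 0.987. Hk2 had 4.61 to 11 CPM (median 7.12) in IP and 7.70 to 33.99 CPM (median 23.8) in input (log2 fold change -1.41 with SE 0.42 and adjusted p = 0.077). Ldhb, the subunit that favours use of lactate, had 860.0 to 1811 CPM (median 1372) and 1051 to 3153 CPM (median 1272) (log2 fold change -0.26 with SE 0.34 and adjusted p = 0.721).

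The 6 IP libraries did not share 1 level for most members. In 10 of the 36 rows the 3 libraries with the higher astrocyte marker sums, replicates 2, 3 and 4, were all above replicates 1, 5 and 6, and in 17 rows they were all below, where 18.7% and 24.9% of all 17173 genes with a level were. Above were Slc2a1, Hk2, Pfkfb2, Aldoc, Slc16a1, Bsg, Pdk4, Pdha1, Pygb and Pygm. Below were the glucose transporter gene Slc2a3, Gpi1, all 3 phosphofructokinase genes (Pfkl, Pfkm and Pfkp), Aldoa, Tpi1, Gapdh, Pgk1, Pgam1, Eno1, Eno2, Pkm, Ldhb, Slc16a3, Slc16a7 and Pdk1. No test was made between these libraries, since they are replicates of 1 group.

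The size of this difference was large for several isoform genes. Slc2a3, which encodes GLUT3, the glucose transporter of neurons, had 219, 72.96, 58.3, 57.1, 230.0 and 240.1 CPM in IP replicates 1 to 6. Eno2, the neuronal enolase, had 1758, 571, 592, 363, 2369.8 and 2165 CPM. Bsg encodes basigin, the chaperone that brings lactate transporters to the cell surface, and had 1402, 3004, 3475, 3608, 1275 and 1724 CPM. Pygm, known as the muscle form of glycogen phosphorylase and also made by astrocytes, had 18.2, 58.6, 109.9, 115, 24.3 and 30.8 CPM. Replicates 2, 3 and 4 were the low libraries for Slc2a3 and Eno2 and the high ones for Bsg and Pygm. The input levels lay at 33.7 to 265 CPM (median 152) for Slc2a3 and at 374 to 2085 CPM (median 1693) for Eno2. For Bsg they lay at 715 to 2029 CPM (median 1078) and for Pygm at 13.3 to 30.7 CPM (median 20.8). The astrocyte, Müller glia and ganglion cell marker sums and the mitochondrial share divided these libraries in the same way, and their part in these levels was not tested.

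An alternative chosen after seeing the data left out IP replicates 1, 5 and 6, the 3 with the lowest astrocyte marker sums. With the 3 other IP libraries, 4 members were called higher than input and 0 lower, where 5.35% and 1.17% of 16445 genes were. The 4 were Slc2a1 (log2 fold change 2.73, adjusted p = 0.00375), Aldoc (2.34, adjusted p = 0.00139), Pygm (2.28, adjusted p = 0.00304) and Bsg (1.63, adjusted p = 0.0155). All 4 were already seen to be higher in the 3 libraries kept than in the 3 left out, so these p-values are no separate support. Pgam1, phosphoglycerate mutase, stood at -1.02 (adjusted p = 0.077) in this fit.

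**Figure D2:**
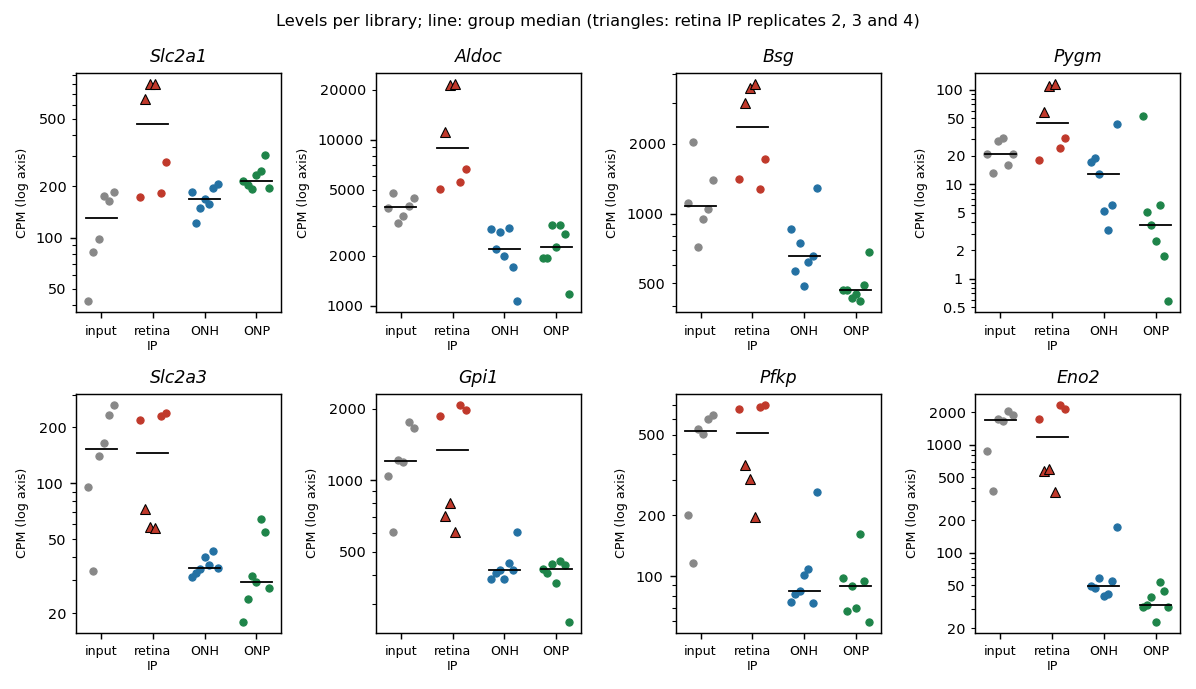
Level in CPM (log axis) of 8 members in every library of the 4 groups; triangles mark retinal IP replicates 2, 3 and 4, and lines are group medians. Slc2a1, Aldoc, Bsg and Pygm (top) are highest in the triangles, and Slc2a3, Gpi1, Pfkp and Eno2 (bottom) are lower in the triangles than in the other 3 retinal IP libraries.

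Retinal IP was next compared with the 2 nerve IP groups, which asks how the IP RNA of retina differs from that of the nerve. Isoform genes of every glycolytic step except hexokinase were called higher in retina, and Hk2, Pfkfb2, Pfkfb3, Slc16a1 and Mpc1 were called lower. Against ONH, 22 of the 36 rows were called higher and 5 lower, where 12.7% of 16355 genes were called higher and 21.1% lower. Against ONP, 21 were called higher and 6 lower, where 12.9% and 19.9% of genes were. The median log2 fold change of the members was 1.13 against ONH and 1.26 against ONP, and that of all genes was -0.13 and -0.098. In both comparisons at once 21 members were called higher (9.31% of all genes) and 5 lower (16.1%). The 2 comparisons share the retinal libraries and the batch term, so they are not independent.

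These counts moved with the bridging libraries. Without ONP replicate 7, 5 members were called higher than ONH and 6 higher than ONP, where 4.44% and 3.49% of all genes were. The 5 were Pfkm, Aldoc, Eno2, Pdk2 and Pdha1, and the 6 were Pfkl, Aldoc, Tpi1, Eno2, Ldha and Pdha1, so that 3 of the 21 stayed called in both. Called lower in that fit were 5 members against ONH and 3 against ONP (13.9% and 9.76% of all genes), and the 3 were Hk2, Slc16a1 and Pfkfb2. Without ONH replicate 7, 17 were called higher than ONH and 19 higher than ONP, where 10.2% and 11.7% of all genes were. Without either of them and hence without a batch term, 26 and 24 members were called higher, where 29.3% and 29.6% of all genes were, and 5 and 7 lower, where 29.4% and 29.3% were. Retina, batch and the absence of Y-linked RNA cannot be told apart in that last fit. Levels that do not overlap rest on no fit, but they carry no batch correction either. Of the nerve libraries only replicate 7 of ONH and of ONP shared the batch of retina. Retina and batch are therefore not separated in such levels. By this measure 10 members had every retinal IP library above all 14 nerve libraries, where 6.79% of all genes had, and 4 had every one below (10.8%).

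Marker genes of other cells also differed between retina and nerve. The ganglion cell marker sum was 921 to 5477 CPM in retinal IP and 15.1 to 258 CPM in the nerve, with 9 of its 10 genes called higher than ONH and 10 higher than ONP. All 9 oligodendrocyte markers were called lower, at summed levels of 49.7 to 154 CPM in retinal IP and 27767 to 123428 CPM in the nerve. The sum of 8 microglia markers was 110 to 188 CPM in retinal IP, 251 to 2087 CPM in ONH and 332 to 3128 CPM in ONP. The astrocyte marker sum was 1097 to 8659 CPM in retinal IP, 5258 to 27113 CPM in ONH and 10386 to 33688 CPM in ONP. Of 8 Müller glia markers, 3 were called higher than ONH and 4 higher than ONP, and 2 lower in each, at summed levels of 3885 to 10915 CPM in retinal IP, 3812 to 7283 CPM in ONH and 2352 to 5353 CPM in ONP. All 12 rod and cone markers were called lower than ONH and 0 were called against ONP. Their sum was 579 to 2368 CPM in retinal IP, 45.5 to 721 CPM in ONH replicates 1 to 6 and 42599 CPM in the bridging ONH library. All 6 fibroblast markers and 5 of 6 endothelium markers were called lower in both comparisons. No marker of these lists stood at 0 in all retinal IP libraries. The part of these cells in the levels below was not tested.

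**Figure D3:**
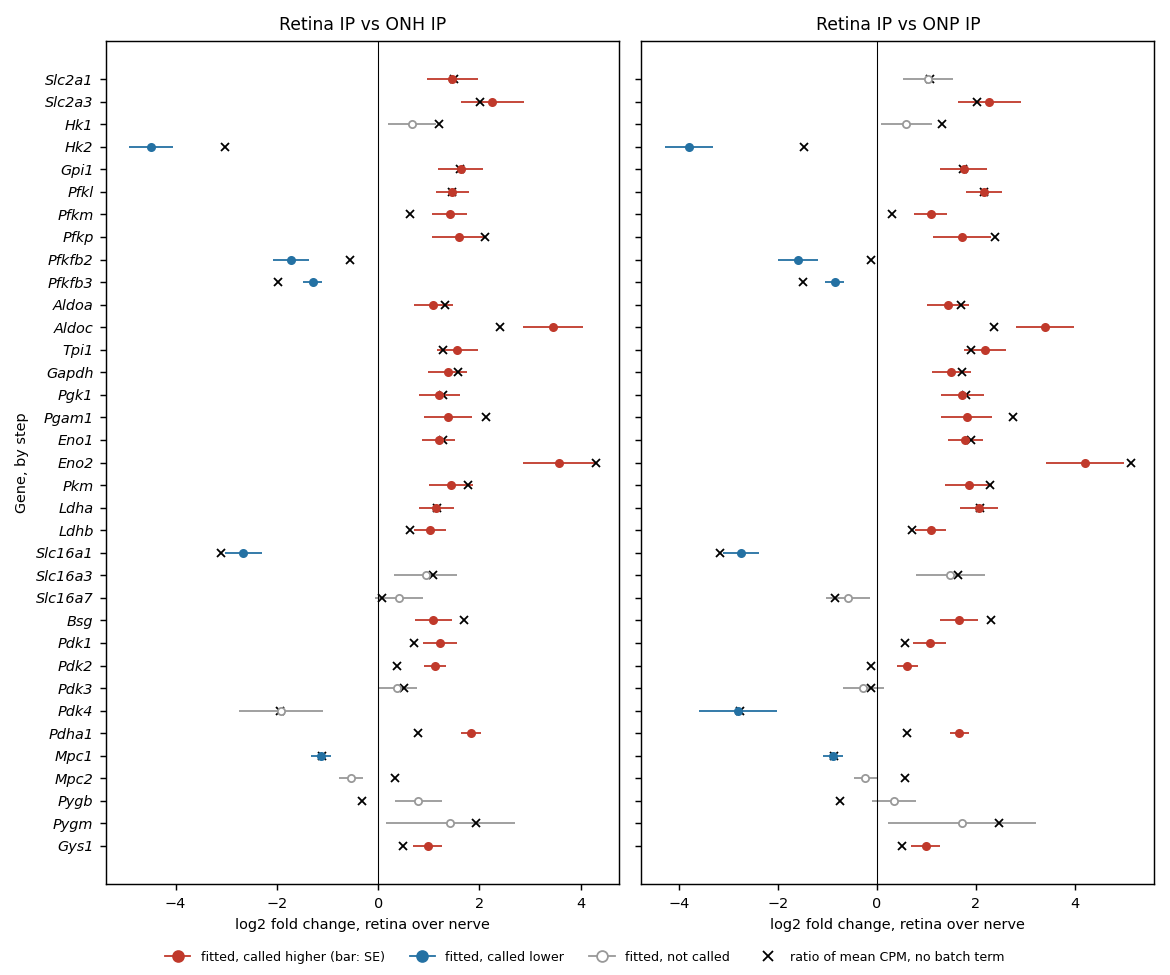
Fitted log2 fold change of retinal IP over ONH IP (left) and ONP IP (right) for the 35 genes, with bars of 1 SE; filled red or blue points passed the test, open ones did not, and crosses give the log2 ratio of mean CPM + 0.5 with no batch term. Points and crosses lie close together for Gpi1, Pfkl and Ldha and far apart for Hk2, Pfkfb2, Aldoc and Pdha1.

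At glucose entry, Slc2a3 was called higher in retina. It had 57.1 to 240.1 CPM (median 146) in retinal IP, 31.1 to 42.9 CPM (median 34.9) in ONH and 17.9 to 64.6 CPM (median 29.3) in ONP. The log2 fold change was 2.26 (SE 0.62, adjusted p = 0.00889) against ONH and 2.27 (SE 0.63, adjusted p = 0.00966) against ONP. Here and in what follows, paired values are fitted log2 fold changes against ONH and then ONP, and levels are listed for retinal IP, ONH and ONP in turn. Values without both bridging libraries come from the fit with no batch term, where 29.3% and 29.6% of all genes were called higher. Retina and batch cannot be told apart in them, so their p-values are no separate support. With the batch term but without ONP replicate 7, Hk1, Pfkp, Pgam1, Pkm and Bsg were called higher in neither comparison. Retina lay above all ONH libraries but overlapped ONP replicate 5 at 64.6 CPM. Slc2a1 had 174 to 797 CPM (median 465) in retinal IP, 123 to 208 CPM (median 168) in ONH and 194 to 305 CPM (median 215) in ONP. It was called higher than ONH, 1.47 (SE 0.51, adjusted p = 0.0313), with a value of 1.04 (SE 0.51, adjusted p = 0.128) against ONP.

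Hexokinase, which traps glucose in the cell as glucose 6-phosphate, was split by isoform. Hk2 (ENSMUSG00000000628, mm10 chromosome 6, 82725025 to 82774454, - strand) was called lower in retina. It had 6.98, 7.25, 11, 10.4, 4.61 and 5.50 CPM in retinal IP replicates 1 to 6, 19.3 to 38.3 CPM in ONH replicates 1 to 6 and 13.3, 21.9, 24.2, 23.1, 20.2, 22.2 and 28.7 CPM in ONP replicates 1 to 7. Every retinal library was below every nerve library. The bridging ONH library stood alone at 299 CPM. The fitted log2 fold change was -4.48 (SE 0.43, adjusted p = 2.06e-07) against ONH and -3.80 (SE 0.49, adjusted p = 8.59e-06) against ONP, the largest decrease of any member in this fit. Without both bridging libraries Slc16a1 had the largest, and Hk2 was -1.74 against ONH and -1.41 against ONP (adjusted p = 4.77e-06 and 3.80e-05). Hk1, the isoform of most neural cells, had 121 to 377 CPM (median 282) in retinal IP, 63.1 to 285 CPM (median 80.7) in ONH and 69.3 to 179.8 CPM (median 102) in ONP, and its log2 fold changes of 0.67 (SE 0.46, adjusted p = 0.279) and 0.60 (SE 0.52, adjusted p = 0.403) did not pass. Hk1 stood at 1.64 and 1.27 without both bridging libraries (adjusted p = 2.43e-05 and 0.000274).

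Gpi1, phosphoglucose isomerase, and the phosphofructokinase genes were called higher in retina in both comparisons. Gpi1 had 607 to 2083 CPM (median 1335) in retinal IP, 385 to 606 CPM (median 419) in ONH and 254 to 458 CPM (median 424) in ONP, without overlap. Its log2 fold change was 1.63 (SE 0.45, adjusted p = 0.00827) and 1.76 (SE 0.47, adjusted p = 0.00755). Phosphofructokinase commits sugar to glycolysis and is built from liver-type, muscle-type and platelet-type subunits. Pfkl, the liver type, had 655 to 1056 CPM (median 804), 233 to 449 CPM (median 288) and 102 to 247 CPM (median 201) in the same order, again without overlap, with log2 fold changes of 1.46 (SE 0.32, adjusted p = 0.00187) and 2.17 (SE 0.36, adjusted p = 0.000127). Pfkp, the platelet type, had 195 to 704 CPM (median 511), 73.3 to 261 CPM (median 84.1) and 59.5 to 162 CPM (median 89.9), and the bridging ONH library at 261 CPM was above the lowest retinal one. Pfkp values were 1.59 (SE 0.53, adjusted p = 0.0257) and 1.73 (SE 0.58, adjusted p = 0.0286). Pfkp stood at 2.52 and 2.36 without both bridging libraries (adjusted p = 1.40e-06 and 2.41e-06). Pfkm, the muscle type, overlapped: it had 195 to 375 CPM (median 280.0) in retina, 105 to 281 CPM (median 186) in ONH and 141 to 379 CPM (median 205) in ONP, with values of 1.41 (SE 0.35, adjusted p = 0.00389) and 1.09 (SE 0.34, adjusted p = 0.0181). The bridging libraries were the lowest for Pfkm in both nerve groups. Pfkm stood at 0.57 and 0.26 without both bridging libraries (adjusted p = 0.0325 and 0.328).

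The 2 genes for the enzymes that make fructose 2,6-bisphosphate, the activator of phosphofructokinase, were called lower in retina. Pfkfb3, the form with the highest kinase activity, had 31.1, 35.1, 22.4, 28.9, 27.2 and 30.4 CPM in retinal IP, 62.7 to 143 CPM (median 120.4) in ONH and 61.3 to 96.7 CPM (median 91.2) in ONP. All retinal libraries were below all nerve libraries, and the log2 fold change was -1.30 (SE 0.19, adjusted p = 4.68e-05) and -0.85 (SE 0.19, adjusted p = 0.00188). Pfkfb3 stood at -2.05 and -1.54 without both bridging libraries (adjusted p = 1.35e-09 and 2.57e-08). Pfkfb2, the heart form, had 4.60 to 9.96 CPM (median 6.61) in retina and overlapped both nerve groups, at 4.82 to 7.66 CPM in ONH replicates 1 to 6 and 5.29 to 11.2 CPM (median 7.02) in ONP. Its fitted values of -1.72 (SE 0.36, adjusted p = 0.00115) and -1.60 (SE 0.40, adjusted p = 0.00457) rested on the bridging libraries, at 33.5 CPM in ONH and 11.2 CPM in ONP. Without both of them the values were 0.15 and 0.041 (adjusted p = 0.615 and 0.895).

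Both aldolases were called higher in retina, Aldoc more than Aldoa. Aldoc had 5066 to 21565 CPM (median 8877) in retinal IP, 1062 to 2938 CPM (median 2207) in ONH and 1181 to 3056 CPM (median 2258) in ONP, without overlap. The log2 fold change was 3.45 (SE 0.59, adjusted p = 0.000196) against ONH and 3.39 (SE 0.58, adjusted p = 0.000182) against ONP. The bridging libraries, at 1062 and 1181 CPM, were the lowest of their groups. Without both of them the values were 2.33 and 2.28 (adjusted p = 1.69e-05 and 1.83e-05). Aldoa (ENSMUSG00000030695, mm10 chromosome 7, 126795234 to 126800751, - strand) had 3715 to 10096 CPM (median 7102) in retina, 2176 to 4269 CPM (median 2596) in ONH and 1889.6 to 2527 CPM (median 2057) in ONP. Its values were 1.09 (SE 0.39, adjusted p = 0.0359) and 1.44 (SE 0.41, adjusted p = 0.0117), and the bridging ONH library at 4269 CPM was above 2 retinal libraries. Without retinal IP replicates 1, 5 and 6, Aldoa had 0.42 against ONH (adjusted p = 0.243).

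All 4 genes of the triose and phosphoglycerate steps were called higher in retina in both comparisons. Gapdh (ENSMUSG00000057666, mm10 chromosome 6, 125161715 to 125166467, - strand) had 2829 to 7944 CPM (median 5103) in retinal IP, 1406 to 2628 CPM (median 1779) in ONH and 1405 to 1842 CPM (median 1680.2) in ONP. No nerve library reached a retinal one, and the log2 fold change was 1.37 (SE 0.38, adjusted p = 0.00873) and 1.51 (SE 0.40, adjusted p = 0.00644). Tpi1, triose phosphate isomerase, was also without overlap, at 1818 to 4923 CPM (median 3504), 986 to 1769 CPM (median 1385) and 709 to 1119 CPM (median 911), with 1.56 (SE 0.40, adjusted p = 0.00579) and 2.19 (SE 0.42, adjusted p = 0.000545). Pgk1, phosphoglycerate kinase, which makes the first ATP of the pathway, had 433 to 1402 CPM (median 982), 295 to 513 CPM (median 380.2) and 217 to 298 CPM (median 268). Its values were 1.21 (SE 0.41, adjusted p = 0.0274) and 1.73 (SE 0.44, adjusted p = 0.00476), and the bridging ONH library overlapped retina. The same library, at 305 CPM, overlapped retina for Pgam1, which otherwise had 216 to 828 CPM (median 512) in retina, 75.5 to 97.96 CPM in ONH replicates 1 to 6 and 60.01 to 88.7 CPM (median 78.7) in ONP. Pgam1 values were 1.38 (SE 0.47, adjusted p = 0.0295) and 1.82 (SE 0.52, adjusted p = 0.0111). Pgam1 stood at 2.60 and 2.81 without both bridging libraries (adjusted p = 5.16e-07 and 1.95e-07). Without retinal IP replicates 1, 5 and 6, Pgk1 and Pgam1 had 0.39 and 0.50 against ONH (adjusted p = 0.237 and 0.277).

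Enolase and pyruvate kinase close the pathway. Eno2 (ENSMUSG00000004267, mm10 chromosome 6, 124760053 to 124769673, - strand) had the largest increase of any member in both comparisons, with and without the bridging libraries, 3.58 (SE 0.72, adjusted p = 0.000892) against ONH and 4.22 (SE 0.79, adjusted p = 0.000398) against ONP. It had 363 to 2369.8 CPM (median 1175) in retinal IP, 48.9, 46.7, 58.95, 39.4, 41.4, 54.6 and 172 CPM in ONH replicates 1 to 7 and 22.9 to 53.1 CPM (median 32.6) in ONP. The lowest retinal library was above the highest nerve library, which was the bridging ONH one. Eno2 stood at 4.80 and 5.17 without both bridging libraries (adjusted p = 5.77e-08 and 2.35e-08). Nefm, a neurofilament gene of ganglion cell axons, stood at 80.6 to 684 CPM in retinal IP and at 1.09 to 22.2 CPM in the nerve. Eno1, the form of most cells, had 2809 to 4570.5 CPM (median 3840.0) in retina, 1164 to 2306 CPM (median 1591) in ONH and 706 to 1349 CPM (median 919) in ONP, without overlap, with values of 1.19 (SE 0.32, adjusted p = 0.00719) and 1.79 (SE 0.35, adjusted p = 0.000597). The near-identical copy Eno1b took 19.1% to 29.9% of the counts of Eno1 and Eno1b together, so the split between them is uncertain. Pkm, pyruvate kinase, had 3343 to 7212 CPM (median 4755), 1068 to 2987 CPM (median 1218) and 622 to 1509 CPM (median 1027), also without overlap, with values of 1.44 (SE 0.43, adjusted p = 0.0139) and 1.86 (SE 0.48, adjusted p = 0.00555). Pkm stood at 2.09 and 2.24 without both bridging libraries (adjusted p = 3.73e-07 and 1.53e-07). Its M1 and M2 transcripts are not separated in a table by gene.

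Both lactate dehydrogenase genes were called higher in retina. Ldha (ENSMUSG00000063229, mm10 chromosome 7, 46841475 to 46855627, + strand) had 3077, 2999, 4520.0, 3836, 3009.7 and 3063 CPM in retinal IP, 897 to 2203 CPM (median 1543) in ONH and 491 to 1128 CPM (median 765) in ONP, and no libraries overlapped. The log2 fold change was 1.15 (SE 0.34, adjusted p = 0.0141) and 2.06 (SE 0.38, adjusted p = 0.000393). Ldhb had 860.0 to 1811 CPM (median 1372), 644 to 1089 CPM (median 846) and 682 to 1067 CPM (median 742), with overlap, and 1.02 (SE 0.31, adjusted p = 0.0159) and 1.09 (SE 0.31, adjusted p = 0.011).

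Of the 3 proton-coupled lactate transporter genes, 1 was called. Slc16a1 (ENSMUSG00000032902, mm10 chromosome 3, 104638668 to 104658462, + strand) encodes MCT1, known from astrocytes, oligodendrocytes and endothelium, and was called lower in retina. It had 45.6, 77.7, 103, 75.4, 40.7 and 63.5 CPM in retinal IP, 556, 451, 483, 569.7, 923, 679 and 426 CPM in ONH and 415, 490.1, 513, 428, 1040.5, 956 and 471 CPM in ONP. The highest retinal library was far below the lowest nerve library. The log2 fold change was -2.66 (SE 0.36, adjusted p = 2.00e-05) and -2.75 (SE 0.36, adjusted p = 1.00e-05), and -3.13 and -3.21 without both bridging libraries. It was low in input too, at 8.84 to 82.3 CPM (median 53.6). Slc16a3, which encodes the export transporter MCT4, had 10.8 to 62.7 CPM (median 38.3), 13.1 to 28.7 CPM (median 16.2) and 6.14 to 18.9 CPM (median 8.87), with values of 0.94 (SE 0.63, adjusted p = 0.258) and 1.49 (SE 0.69, adjusted p = 0.107) that did not pass. Slc16a7, which encodes MCT2, was low throughout, at 1.84 to 7.32 CPM (median 5.92), 3.49 to 7.23 CPM (median 4.50) and 5.09 to 14.9 CPM (median 10.9), and did not pass, with values of 0.41 (SE 0.47, adjusted p = 0.527) and -0.58 (SE 0.44, adjusted p = 0.341). Their chaperone gene Bsg was called higher in retina, 1.09 (SE 0.37, adjusted p = 0.0274) and 1.67 (SE 0.39, adjusted p = 0.00259), at 1275 to 3608 CPM (median 2364), 487 to 1291 CPM (median 656) and 419 to 679.9 CPM (median 468). The bridging ONH library, at 1291 CPM, overlapped retina for Bsg. Bsg stood at 1.92 and 2.44 without both bridging libraries (adjusted p = 2.92e-06 and 1.84e-07).

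At the entry into mitochondria, 1 of the 2 carrier subunit genes was called. Mpc1 (ENSMUSG00000023861, mm10 chromosome 17, 8282904 to 8297661, + strand) had 110.3, 78.9, 107, 90.4, 95.3 and 90.5 CPM in retinal IP, 161 to 258 CPM (median 190.3) in ONH and 146 to 224 CPM (median 165) in ONP. Every retinal library was below every nerve library, and the log2 fold change was -1.13 (SE 0.20, adjusted p = 0.000343) and -0.88 (SE 0.20, adjusted p = 0.00182). A processed copy, Mpc1-ps, took 19.4% to 24.97% of the counts of the pair. Mpc2, the other subunit, had 113 to 162 CPM (median 123), 69.1 to 161 CPM (median 96.1) and 67.4 to 188 CPM (median 73.00), with values of -0.54 (SE 0.23, adjusted p = 0.0825) and -0.23 (SE 0.23, adjusted p = 0.47) that did not pass. The Mpc2 sign turned without both bridging libraries, to 0.50 and 0.89 (adjusted p = 0.00908 and 7.32e-05).

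Pdha1 (ENSMUSG00000031299, mm10 chromosome X, 160122209 to 160138413, - strand), the catalytic alpha subunit of pyruvate dehydrogenase, was called higher in retina. It had 250.3, 271, 309, 294, 264 and 265 CPM in retinal IP, 151, 198, 136, 203, 179, 159.6 and 87.6 CPM in ONH and 184, 184, 195, 206, 219, 201 and 78.2 CPM in ONP. No libraries overlapped, and the bridging libraries were the lowest of both nerve groups. The fitted log2 fold change was 1.83 (SE 0.20, adjusted p = 9.85e-07) and 1.67 (SE 0.20, adjusted p = 2.60e-06), and without both bridging libraries it was 0.73 and 0.51 (adjusted p = 3.15e-05 and 0.000936).

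The pyruvate dehydrogenase kinases, which switch that enzyme off, gave mixed results. Pdk1 was called higher in retina, 1.22 (SE 0.33, adjusted p = 0.00831) and 1.07 (SE 0.33, adjusted p = 0.0173), at 39.96 to 108 CPM (median 72.7), 31.98 to 56.7 CPM (median 46.5) and 37.6 to 58.9 CPM (median 49.9). The bridging libraries were the lowest of both nerve groups. Pdk1 stood at 0.69 and 0.56 without both bridging libraries (adjusted p = 0.00959 and 0.0319). Pdk2 was called higher too, 1.11 (SE 0.22, adjusted p = 0.000713) and 0.62 (SE 0.21, adjusted p = 0.0316), at 174 to 266 CPM (median 202), 98.01 to 209.9 CPM (median 163) and 143 to 286 CPM (median 234). Against ONP the Pdk2 means were 212 CPM in retina and 229 CPM in ONP, and without both bridging libraries the values were 0.33 and -0.16 (adjusted p = 0.0505 and 0.342). Pdk3 did not pass, with values of 0.38 (SE 0.39, adjusted p = 0.48) and -0.27 (SE 0.41, adjusted p = 0.653). Pdk4 was low in retina and called lower than ONP, -2.81 (SE 0.79, adjusted p = 0.0101), with -1.92 (SE 0.83, adjusted p = 0.0792) against ONH. Its levels were 0 to 5.23 CPM (median 1.08) in retina, 2.70 to 12.1 CPM (median 8.79) in ONH and 12.2 to 20.5 CPM (median 14.7) in ONP, and all ONP libraries were above all retinal ones.

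Of the 3 glycogen genes, Gys1 alone was called, and higher in retina. It had 14.4 to 18.1 CPM (median 16.6) in retinal IP, 8.77 to 17.4 CPM (median 10.9) in ONH and 8.21 to 15.04 CPM (median 11.9) in ONP, with 0.98 (SE 0.28, adjusted p = 0.0117) and 0.99 (SE 0.29, adjusted p = 0.0122). The bridging libraries were again the lowest of both nerve groups. Gys1 stood at 0.51 and 0.49 without both bridging libraries (adjusted p = 0.0237 and 0.0267). Pygb, the brain form of glycogen phosphorylase, had 108 to 393 CPM (median 170.2), 105 to 441 CPM (median 237) and 186 to 648 CPM (median 338), with values of 0.80 (SE 0.47, adjusted p = 0.195) and 0.34 (SE 0.45, adjusted p = 0.602). Without both bridging libraries Pygb was called lower than ONP, at -0.82 (adjusted p = 0.0271). Pygm spread widely, at 18.2 to 115 CPM (median 44.7) in retina, 17.03, 19.00, 12.9, 5.22, 3.30, 6.02 and 43.5 CPM in ONH and 52.6, 5.14, 3.73, 2.53, 6.06, 1.76 and 0.576 CPM in ONP, with values of 1.43 (SE 1.28, adjusted p = 0.409) and 1.72 (SE 1.5, adjusted p = 0.408). Pygm stood at 2.53 and 2.34 without both bridging libraries (adjusted p = 0.00871 and 0.013).

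**Figure D4:**
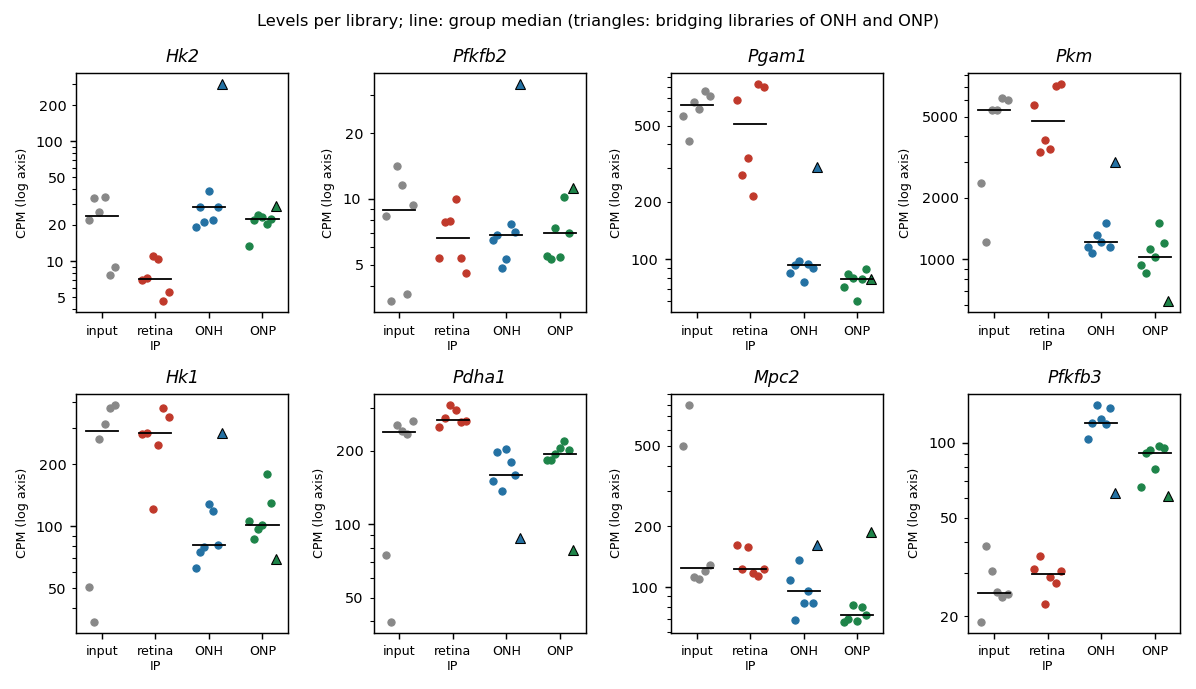
Level in CPM (log axis) of 8 members in every library; triangles mark the bridging libraries, replicate 7 of ONH and of ONP, and lines are group medians. For Hk2 and Pfkfb2 the ONH triangle is far above the other ONH libraries, and for Pdha1 both triangles are the lowest nerve libraries.

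The nerve head was compared with the nerve proper. Ldha was called higher in ONH, at 897 to 2203 CPM (median 1543) against 491 to 1128 CPM (median 765) in ONP (log2 fold change 0.92 with SE 0.21 and adjusted p = 0.0128). In all 3 members were called higher and 2 lower, where 4.43% and 3.04% of all genes were. The others higher were Pfkl (log2 fold change 0.70 with SE 0.20 and adjusted p = 0.034) and Pfkfb3 (log2 fold change 0.45 with SE 0.12 and adjusted p = 0.0341). Lower were Slc16a7 (log2 fold change -0.99 with SE 0.29 and adjusted p = 0.0406) and Pdk2 (log2 fold change -0.50 with SE 0.13 and adjusted p = 0.024). The Ldha call held in every alternative, with each library left out in turn too. Each of the other 4 calls was lost on leaving out 1 of several libraries: without ONH replicate 3, Ldha was the only member called. Within batch 1 alone, 6 libraries against 6, 7 members were called higher and 4 lower (8.57% and 8.01% of all genes). In batch 1 each ONH library correlated best with the ONP library of its own number, and these fits do not pair them. Counts with a replicate block are given in the last section. All 12 rod and cone markers were called higher in ONH, at summed levels of 45.5 to 721 CPM in ONH replicates 1 to 6 and 6.28 to 73.2 CPM in ONP replicates 1 to 6. Their part in these differences was not tested.

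A ratio of 2 isoform genes within a library does not depend on its size, and such ratios were described without a test. Mpc2 over Mpc1 was higher in every retinal IP library than in all 3 other groups, at a log2 ratio of 0.25 to 0.64. It was -0.24 to 0.14 in input, -1.84 to 0.0016 in ONH and -1.50 to -0.25 in ONP. The bridging libraries were the highest of both nerve groups, and the highest batch 1 values were -0.917 in ONH and -0.954 in ONP. These ratios hold no batch term, so region and batch are not separated in them. Hk2 over Hk1 was lower in retina, at -6.34 to -3.46, than in ONH, at -2.42 to 0.072, and ONP, at -3.15 to -1.27. Eno2 over Eno1 was higher in retina, at -3.24 to -0.87, than in ONH, at -5.27 to -3.74, and ONP, at -5.22 to -4.48.

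The transporter ratio Slc16a3 over Slc16a1 was higher in retina as well, at -3.25 to 0.55, than in ONH, at -5.83 to -3.89, and ONP, at -6.87 to -4.71. Ldhb over Ldha lay at -2.05 to -0.76 in retina and was below ONP, at -0.47 to 0.73, but overlapped ONH, at -1.77 to -0.085. Against input, Pdk1 over Pdk2 was lower in retinal IP, at -2.39 to -0.86 against -0.65 to 0.84. Aldoc over Aldoa overlapped in all comparisons and spanned -0.86 to 2.48 within retinal IP, where replicates 2, 3 and 4 were the high ones.

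**Figure D5:**
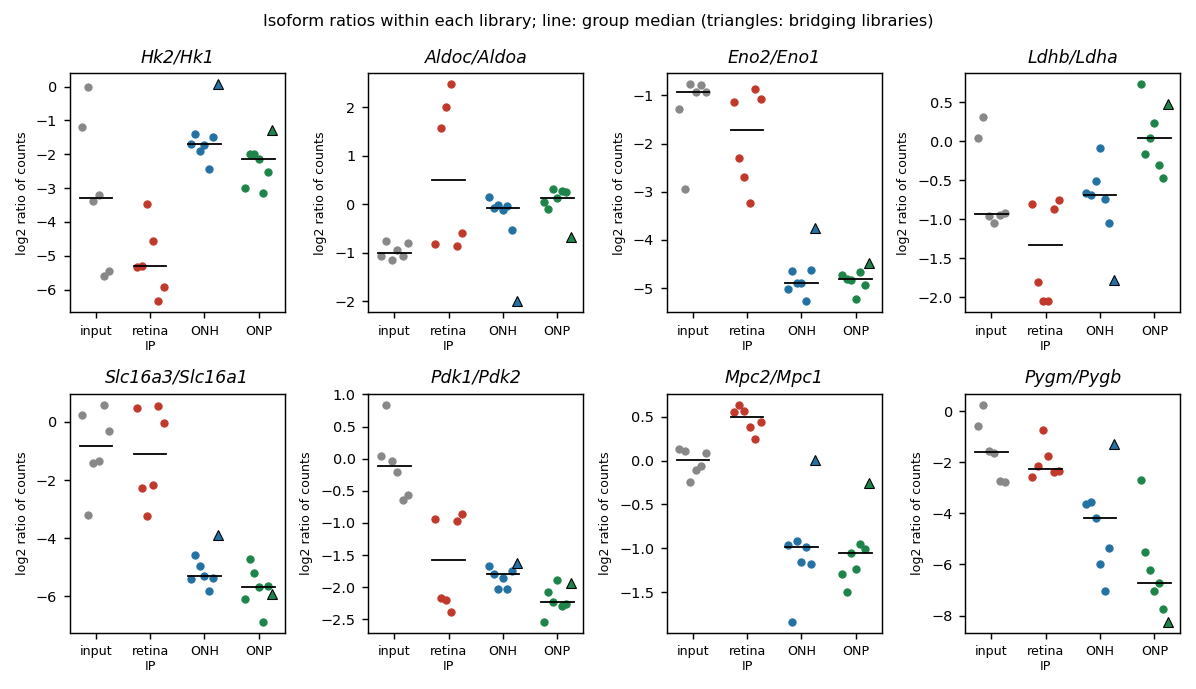
Log2 ratio of the counts of 2 isoform genes within each library, for 8 pairs in the 4 groups; triangles mark the bridging libraries and lines are group medians. Mpc2/Mpc1 in retinal IP lies above all other groups, with the triangles the highest of the nerve libraries. Hk2/Hk1, Eno2/Eno1 and Slc16a3/Slc16a1 separate retinal IP from both nerve groups.

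A further 79 genes of the same pathways were listed, of which 70 were tested between regions and 66 against input. Against input 0 were called in either direction. Against ONH 12 were called higher in retina and 10 lower, and against ONP 12 and 13. The shares over all genes were 12.7% higher and 21.1% lower against ONH and 12.9% and 19.9% against ONP. Among those lower in both were Bpgm, the mutase that makes 2,3-bisphosphoglycerate, at -1.74 (SE 0.26, adjusted p = 5.90e-05) and -2.44 (SE 0.25, adjusted p = 5.55e-07), and Pfkfb4, another gene of the Pfkfb family, at -1.65 (SE 0.25, adjusted p = 7.58e-05) and -1.94 (SE 0.26, adjusted p = 1.04e-05). Gpd1, glycerol 3-phosphate dehydrogenase, was also lower, at -1.75 (SE 0.53, adjusted p = 0.0152) and -2.11 (SE 0.51, adjusted p = 0.00328), with a mean of 24.4 CPM in retina against 160.3 CPM in ONH and 199.7 CPM in ONP. Pck2, mitochondrial phosphoenolpyruvate carboxykinase, was higher in retina in both, at 1.59 (SE 0.34, adjusted p = 0.0014) and 1.91 (SE 0.35, adjusted p = 0.000357). Gaa, the lysosomal glucosidase, and Gbe1, the glycogen branching enzyme, were higher than ONH, at 2.22 (SE 0.42, adjusted p = 0.000471) and 1.59 (SE 0.29, adjusted p = 0.000417).

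Slc16a8, which encodes the lactate transporter MCT3 of the retinal pigment epithelium, was lower in retina than in ONH, at -6.69 (SE 1.10, adjusted p = 0.000138), with means of 1.07 and 44.1 CPM. The summed level of 5 pigment epithelium markers was 20.5 to 61.5 CPM in retinal IP, at most 741 CPM in ONH replicates 1 to 6 and 2994 CPM in the bridging ONH library. Between ONH and ONP, 3 of the 70 listed genes tested were called higher and 3 lower, where 4.43% and 3.04% of all genes were. Slc16a8 was higher in ONH, at 5.37 (SE 0.90, adjusted p = 0.00155), and Bpgm, at -0.70 (SE 0.18, adjusted p = 0.02), and Tkt, transketolase of the pentose phosphate pathway, at -0.64 (SE 0.17, adjusted p = 0.0247), were lower there.

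Because many members were called in the same direction, the 250 bases before each start site were searched for ACGTG and GCGTG on both strands. These are the core letters of the hypoxia response element, the site bound by HIF, a factor known to drive glycolysis genes. RefSeq promoter windows (build GRCm38.p6, the assembly of mm10) were found for 32 of the 35 symbols, in 49 windows, some of which overlap. Bsg, Slc16a7 and Slc2a3 had no entry. Of the 49 windows 77.6% held a match, as did 38.6% of all 32851 windows of the same length, and 28 of the 32 genes had a match in at least 1 window. The member windows were richer in G and C, with a median of 60.4% against 52.4% over all windows, and the effect of this on the share was not tested. Among genes whose retinal libraries all lay above the nerve libraries, 73.3% of 15 windows held a match, and among those all below, 83.3% of 6 windows did. A match is a description of these letters, not a bound site.

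The windows of 5 members are shown, 3 that were higher in retina without overlap and 2 that were lower, 5′ to 3′ on the strand of the gene with matches in capitals. Where matches on both strands overlap, as in CACGTG, each is counted. Gapdh lies at chr6:125165774-125166023, minus strand, Ldha at chr7:46845554-46845803, plus strand, and Pdha1 at chrX:160138431-160138680, minus strand. Hk2 lies at chr6:82774455-82774704, minus strand, and Slc16a1 at chr3:104638414-104638663, plus strand. None of these windows overlaps an exon annotated in GENCODE M21. Those of Gapdh and Ldha lie within the span of their gene, and the other 3 lie just upstream of theirs.
Gapdh: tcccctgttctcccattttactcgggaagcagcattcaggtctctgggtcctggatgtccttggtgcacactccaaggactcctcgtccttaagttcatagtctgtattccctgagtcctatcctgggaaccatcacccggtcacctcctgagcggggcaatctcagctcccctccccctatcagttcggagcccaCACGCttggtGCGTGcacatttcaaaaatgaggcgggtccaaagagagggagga
Ldha: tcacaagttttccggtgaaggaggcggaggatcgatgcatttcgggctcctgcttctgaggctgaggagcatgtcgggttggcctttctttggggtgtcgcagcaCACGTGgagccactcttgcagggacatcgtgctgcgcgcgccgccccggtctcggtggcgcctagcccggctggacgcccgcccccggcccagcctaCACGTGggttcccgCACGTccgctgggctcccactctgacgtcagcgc
Pdha1: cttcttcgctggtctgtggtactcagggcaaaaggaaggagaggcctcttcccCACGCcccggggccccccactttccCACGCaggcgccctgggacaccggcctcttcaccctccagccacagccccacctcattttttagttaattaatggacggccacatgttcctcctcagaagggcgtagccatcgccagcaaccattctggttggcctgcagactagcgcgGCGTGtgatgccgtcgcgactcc
Hk2: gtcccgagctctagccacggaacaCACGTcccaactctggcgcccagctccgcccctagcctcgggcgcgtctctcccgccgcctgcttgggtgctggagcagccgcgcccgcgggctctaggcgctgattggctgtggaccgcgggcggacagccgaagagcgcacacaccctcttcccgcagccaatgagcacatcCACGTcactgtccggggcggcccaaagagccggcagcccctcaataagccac
Slc16a1: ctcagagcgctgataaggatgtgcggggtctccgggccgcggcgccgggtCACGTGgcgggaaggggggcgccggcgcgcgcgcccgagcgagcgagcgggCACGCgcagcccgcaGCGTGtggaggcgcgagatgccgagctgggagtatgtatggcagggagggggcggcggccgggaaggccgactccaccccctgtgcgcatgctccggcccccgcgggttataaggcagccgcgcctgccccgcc

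The Ldha window shown, the first of 2 in the table, held 5 matches, that of Slc16a1 4, that of Pdha1 3, and those of Gapdh and Hk2 2 each. The start after this Ldha window was found in no GENCODE M21 transcript of the gene, and the other Ldha window, whose start was, held 1 match. Matches were present both in the members that were higher in retina and in those that were lower.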

How the data were processed

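The authors deposited 1 table of estimated counts per gene for 26 libraries of polyA RNA made with an ultra-low input kit. Quantification with Salmon 1.6.0 and the build mm10 are named per the submitters' processing notes. The deposited counts were whole numbers and were used as given, and 54409 of 54532 gene IDs were given symbols from GENCODE M21. Totals were 11164619 to 27431026 counts per library, and CPM used TMM size factors over all libraries.

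Tests were edgeR 4.0.16 quasi-likelihood tests (R 4.3.3) with TMM, a minimum count of 10 and minimum total of 15, adjusted by Benjamini-Hochberg over all genes and called at 0.05. The SE given with a log2 fold change is its absolute value divided by the square root of the F statistic of the test. Retinal IP and input were fitted on their 12 libraries. The other comparisons used all 20 IP libraries with a batch term, so that fitted differences between retina and nerve subtract the batch difference seen in the bridging libraries. On simulated data, of 100 genes changed 4-fold the fits called 36 (retinal IP and input), 49 (retina and ONH), 45 (retina and ONP) and 70 (ONH and ONP), among 14707, 16024, 16038 and 16012 genes. The simulated counts held no batch difference and no library set apart from its group, so these rates need not hold for the real libraries.

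All 35 genes were named by rule, with up to 5 of the other pathway genes in each direction of a comparison. The members and lists were chosen with earlier results of these data known. Alternatives were DESeq2 1.42.0, voom weights with limma 3.58.1, size factors by RLE, tests without the filter on low counts, other sets of libraries, batch terms, a replicate block, added counts of gene copies and each library left out. Fits without retinal IP libraries 1, 5 and 6 and of batch 1 with a replicate block were chosen after seeing the data.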

Additional observations from a re-analysis of the deposited data

Results flagged for a closer look

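Dixon's test for 1 value far from its group was applied to each member in each of the 4 groups, 144 in all, and marked 15, where chance marks about 1 in 20. The bridging ONH library accounted for 8 of them. It was the highest ONH library for Hk2 at 299 CPM, Gpi1 at 606 CPM, Pfkp at 261 CPM and Pfkfb2 at 33.5 CPM. It was also the highest for Pgam1 at 305 CPM, Eno2 at 172 CPM and Pkm at 2987 CPM, and the lowest for Pfkfb3 at 62.7 CPM. The bridging ONP library accounted for 4. It was the lowest ONP library for Gpi1 at 254 CPM and Pdha1 at 78.2 CPM and the highest for Bsg at 679.9 CPM and Mpc2 at 188 CPM. Among retinal libraries, Hk1 was lowest in IP replicate 3 at 121 CPM. Slc16a7 was lowest in input replicate 1 at 0.496 CPM and in IP replicate 4 at 1.84 CPM. Dixon's test was not run over all genes. The bridging ONH library lay above all other ONH libraries in 20 of the 36 rows and below in 11, where 30.6% and 22.2% of all 17173 genes did. For the bridging ONP library these were 5 and 18 rows, where 27.8% and 23.1% of all genes did.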

How the results depend on the processing

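For IP against input, 6 members were called higher with DESeq2 (6.38%), 6 with all 26 libraries (8.26%) and 4 without retinal IP libraries 1, 5 and 6 (5.35%). DESeq2 called 2 lower (7.27%) and the fit of all 26 libraries 3 (8.46%). Leaving out each library gave 0 to 3 higher (0% to 2.23%). Shares of all genes called are given in parentheses. Against ONH, all 26 libraries gave 13 higher (7.23%), the 2 groups alone 4 (2.77%) and leaving out each library 5 to 22 (4.44% to 14.7%). Against ONP, leaving out each library gave 6 to 22 higher (3.49% to 14.6%) and 3 to 6 lower (9.76% to 20.5%). Calls in both comparisons were not counted over all genes for the alternatives. That share is at most the smaller of the 2 single shares, which is given here. In both comparisons, all 26 libraries gave 12 higher (at most 7.23%). The 2 groups alone gave 2 higher (at most 2.77%) and 3 lower (at most 10.4%). The fit without retinal IP libraries 1, 5 and 6 gave 13 higher (at most 10.3%). Leaving out each library gave 3 to 21 higher (at most 3.49% to 14.6%) and 3 to 6 lower (at most 9.76% to 20.5%). For ONH against ONP, DESeq2 gave 5 higher (7.03%), and 7 were called higher with the 2 groups alone (7.66%), with batch 1 alone (8.57%) and without retinal IP libraries 1, 5 and 6 (7.32%). All 26 libraries gave 1 higher (2.24%) and 0 lower (0.734%), no low-count filter 0 lower (1.02%), and limma-voom and no batch term 1 lower each (4.05% and 2.24%). Batch 1 alone gave 4 lower (8.01%), and leaving out each library 1 to 4 higher (2.51% to 5.25%) and 0 to 2 lower (1.18% to 4.24%).

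Without both bridging libraries, Pfkfb2 turned to 0.15 and 0.041 and Mpc2 to 0.50 and 0.89 against ONH and ONP, and Pygb to -0.82 and Pdk2 to -0.16 against ONP. With no batch term, Mpc2 was 0.60 and Pdk2 -0.080 against ONP. The cause was not tested. Same-numbered libraries correlated at r from -0.0975 to 0.231 in retina and from 0.0619 to 0.410 in batch 1 of the nerve. The labels do not say what a shared number means, and the main fits left the libraries unpaired. Own numbers correlated best in 5 of 6 and 6 of 6. With the replicate block 0 members were called against input, 17 higher (10.4%) and 5 lower (16%) against ONH, and 20 (10.6%) and 6 (15.6%) against ONP. In both, the block gave 16 higher (at most 10.4%) and 5 lower (at most 15.6%). For ONH against ONP it gave 3 higher (4.27%) and 1 lower (3.6%). Batch 1 with a replicate block gave 9 higher (12.5%) and 7 lower (13.3%). In simulated data 1, 7, 5 and 33 of 100 genes changed 2-fold were called in the 4 comparisons, and the part of depth in this was not tested.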
